A study of Mus musculus with 6 samples.

Results

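The genes described here are 10 members of the Socs and gp130 cytokine signaling pathway, taken by symbol from the 26012 genes of the deposited expression table. All 10 were found and all 10 were above the filter on low values. They comprise the ligands Lif and Osm, the receptor chains Il6ra, Il6st and Osmr, the transcription factor Stat3, and the feedback inhibitors Socs1, Socs2, Socs3 and Cish. The measurements are RNA-seq of ventricular tissue from 6 hearts of male C57BL/6 mice that were 8 weeks old when the left anterior descending coronary artery was tied. Every heart therefore had a myocardial infarction (MI), and every heart was also injected with 10 μg of synthetic RNA duplex in a lipid reagent. In 3 hearts this was a control mimic, and in the other 3 it was a mixture of a miR-19a and a miR-19b mimic in equal amounts by mass. Such a mimic acts in the cell as the mature microRNA. The tissue was taken 4 days after MI. Ventricular tissue mixes cardiomyocytes, fibroblasts, endothelial cells and leukocytes, so fewer cells of a type and less RNA per cell cannot be told apart in these data.

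Cytokines of the interleukin-6 family bind a receptor complex that contains gp130, the protein made from Il6st. Janus kinases bound to the complex then phosphorylate Stat3, which enters the nucleus and activates genes that include Socs3. The Socs proteins bind the receptor or the kinase and switch the signal off. Socs3 acts mainly on gp130, Socs1 mainly on the interferon receptors and their kinases, and Cish and Socs2 mainly on receptors that signal through Stat5, such as the growth hormone receptor. In the infarcted heart the pathway is known for its part in cardiomyocyte survival and in the recruitment of leukocytes. The question for these genes was whether their mRNA differed between the mimics, and Socs1 and Socs3 are of interest as candidate targets of miR-19.

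The injected microRNAs are shown first, with the seed (bases 2 to 8, the part that pairs with a target) in capitals. The mature sequences are those of RefSeq on GRCm38.p6, since the letters of the mimics themselves were not used here. miR-19a-3p lies at chr14:115044048-115044070 on the plus strand. miR-19b-3p comes from 2 hairpins with the same mature sequence, at chr14:115044358-115044380 on the plus strand and chrX:52741991-52742013 on the minus strand. The 2 microRNAs share the seed and differ by U11C, where positions are counted from 1 at the 5′ end of miR-19a.
miR-19a-3p: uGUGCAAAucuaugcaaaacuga
miR-19b-3p: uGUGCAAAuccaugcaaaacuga

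Matches to this seed were searched on the sense strand of the longest annotated 3′ UTR of each gene in GENCODE M21, as the 8-mer TTTGCACA, the 7-mer TTTGCAC or the 7-mer TTGCACA, with overlapping matches counted once as the longest. Of 15867 tested genes with a 3′ UTR, 19.3% had a match and 5.81% an 8-mer, at a median length of 1261 bases. Of the 10 members, 5 had a match. Their 3′ UTRs ran from 1017 bases in Osm to 7102 in Il6ra, and all but that of Osm were longer than that median. A longer 3′ UTR has more places for a match, so these shares are not for equal lengths. Socs1 and Socs3 were also of interest beforehand as candidate targets of miR-19. The share among the members is therefore not that of genes picked without regard to a match. The windows below are printed because they show which members could pair with the seed, each with the matching letters in capitals and all within the 3′ UTR exon on GRCm38. Socs1 and Socs3 hold the 8-mer, at chr16:10783921-10783950 and chr11:117966148-117966177, both on the minus strand. Lif holds 2 7-mers, at chr11:4271447-4271476 and chr11:4272287-4272316 on the plus strand. Il6st has 1, at chr13:112504655-112504684 on the plus strand, and Osmr has 1, at chr15:6814482-6814511 on the minus strand. No match to these letters was found in the 3′ UTR of Socs2, Cish, Stat3, Il6ra or Osm.
Socs1: ttcccagtatcTTTGCACAaaccaggggtc
Socs3: tcaactcagacTTTGCACAtatatttatat
Lif, first match: cttcacgcggtTTTGCACctttctctgtca
Lif, second match: ccagcctctccTTTGCACtgctgctctccc
Il6st: ctttcagaatgTTTGCACtgccgaaaacaa
Osmr: gatctctgcttTTTGCACgcttggttgtct

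The libraries held between 19398196 and 23645308 reads counted on genes. Values below are normalized counts, in which the reads of each gene are scaled by 1 size factor per library. The hearts expressed all 8 cardiomyocyte markers examined, but the summed level of these markers ranged from 296170 normalized counts in miR-19a/19b mimic replicate 3 to 868929 in replicate 1 of the same group. The summed level of 7 neutrophil markers ran the other way, from 838 in miR-19a/19b mimic replicate 1 to 2583 in replicate 3. Between these extremes, the control hearts spanned 482786 to 629133 for cardiomyocyte markers and 1698 to 2037 for neutrophil markers. In the neutrophil sum Csf3r weighed most, at 1307 in miR-19a/19b mimic replicate 3. S100a8, S100a9, Csf3r and Cxcr2 were highest in that heart, and Mmp8, Ly6g and Retnlg were not. Retnlg, at 16.4 there, was below its control range of 25.2 to 48.6. The 6 T cell markers summed to between 199 and 287 in control hearts and to between 151 and 175 in miR-19a/19b mimic hearts, without overlap. In miR-19a/19b mimic replicate 1, 6 skeletal muscle markers summed to 2282, against 28.3 to 69.2 in the other hearts.

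Lif was lower in the miR-19a/19b mimic hearts, and it was the only one of the 10 genes with an unadjusted p-value under 0.05. The other members, Socs1 and Socs3 among them, had unadjusted p-values from 0.250 to 0.942. In limma, 0 of the 10 passed an adjusted p-value under 0.05, where 0% of the 21126 genes tested did. At an unadjusted p-value under 0.05, 1 of the 10 was lower and 0 higher. Of all genes tested 4.01% had such a p-value, 2.63% lower and 1.39% higher. The values of the groups did not overlap for 2 members, both lower, and for 9.2% of all genes tested, 5.3% lower and 3.9% higher. On the recovered whole reads, the Wald test of DESeq2 called 29 genes at the adjusted threshold, and edgeR's quasi-likelihood test called 0. Neither called a member. The median log2 fold change of the members was -0.11, beside 0.00 over all genes tested. Without miR-19a/19b mimic replicate 3, 3 of the 10 members had an unadjusted p-value under 0.05 in limma, beside 3067 of the 21202 genes tested. In the same fit 547 of all genes passed the adjusted threshold, and no member did.

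**Figure D1:**
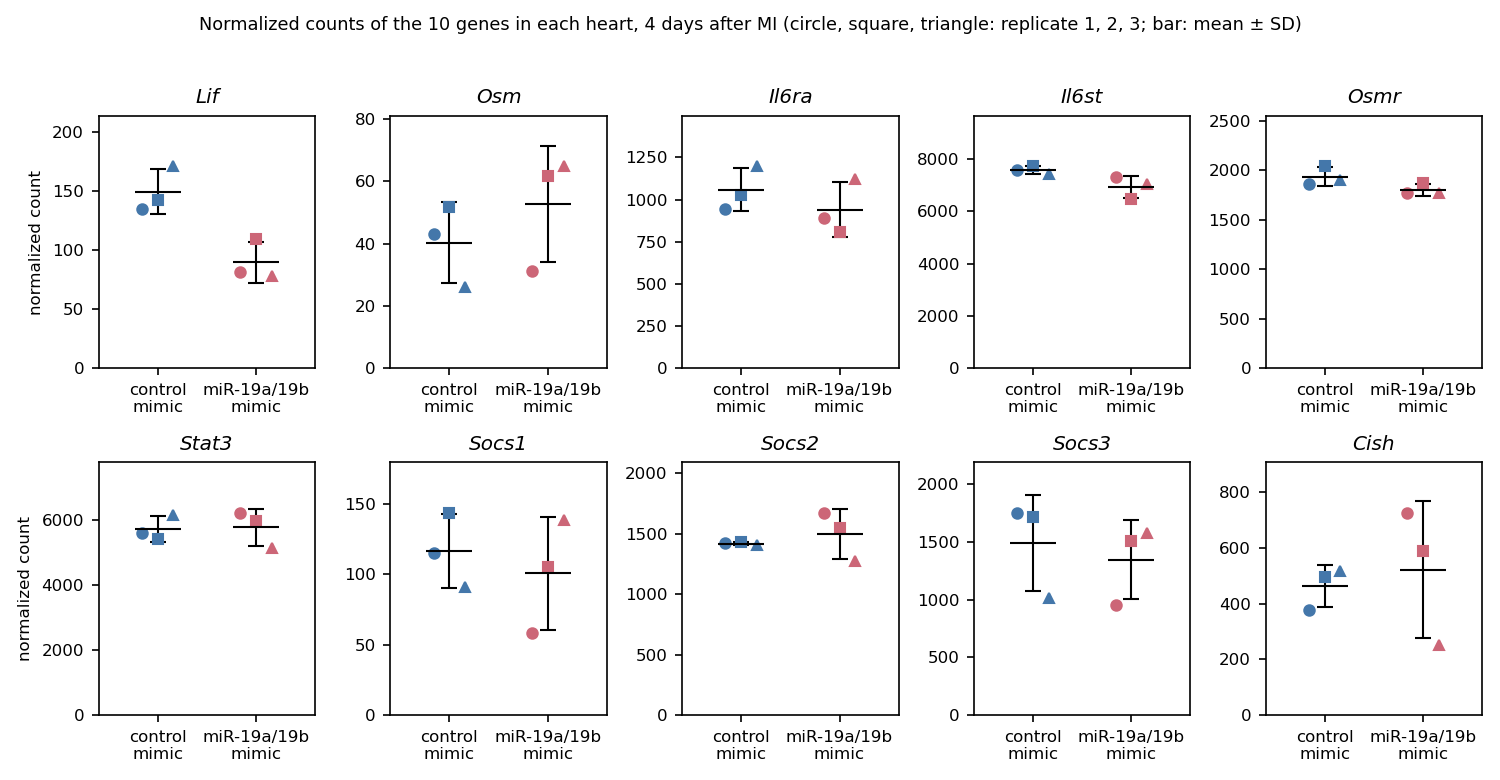
Normalized counts (vertical axis of each panel, starting at 0) of the 10 genes in the 3 control mimic hearts (blue) and the 3 miR-19a/19b mimic hearts (red). Each symbol is 1 heart and the bars are mean ± SD. The groups are apart for Lif and, narrowly, for Il6st, and they overlap for the other genes.

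Leukemia inhibitory factor, the product of Lif (ENSMUSG00000034394, chr11:4257557-4272514 on GRCm38, plus strand), signals through gp130 together with the Lif receptor. Its normalized counts were 135, 142 and 171 in the control hearts and 81.8, 109 and 77.8 in the miR-19a/19b mimic hearts, given here and below in the order of replicates 1 to 3. Every miR-19a/19b mimic heart was thus below every control heart. The means were 149 ± 19.04 (SD, n = 3) and 89.6 ± 17.1, a log2 fold change of -0.74 with a standard error of 0.18 in limma. On the linear scale this is a fold of 0.599, with a 95% confidence interval from 0.448 to 0.800. The unadjusted p-value from limma was 0.00311, the 73rd smallest of 21126, and the adjusted p-value was 0.877. Over the alternatives the adjusted p-value ran from 0.104, without miR-19a/19b mimic replicate 3, to 0.9999, and from DESeq2 it was 0.2002. A two-sided exact permutation test of the 3 hearts against 3 gave p = 0.1, the smallest that this design allows. Leaving out 1 heart at a time, the log2 fold change stayed between -0.89 and -0.64, and the unadjusted p-value between 0.00154 and 0.0177. Lif rested on 76 to 183 reads per heart. The T cell markers were lower in the same hearts, and their part in the result was not tested.

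Oncostatin M, the product of Osm (ENSMUSG00000058755, chr11:4236420-4241026, plus strand), is a cytokine of macrophages and neutrophils whose gene lies next to Lif. The counts of Osm were 43.1, 51.7 and 26.2 in the control hearts and 31.2, 61.9 and 64.8 in the miR-19a/19b mimic hearts. The groups overlapped, with the lowest value in control mimic replicate 3 and the highest in miR-19a/19b mimic replicate 3. Osm had a log2 fold change of 0.36 with a standard error of 0.35 (adjusted p = 0.9996 from limma), and the 95% confidence interval of the fold ran from 0.738 to 2.23. Osm rested on 28 to 75 reads per heart. With 1 heart left out, the value of Osm ranged from 0.08 to 0.69 with each heart left out.

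The receptor chains differed between the highest and the lowest heart by 1.16-fold for Osmr, 1.19-fold for Il6st and 1.49-fold for Il6ra. Il6st (ENSMUSG00000021756, chr13:112464070-112510086, plus strand) makes gp130, the signaling chain that all ligands of the family share. Its counts were 7593, 7723 and 7420 in control hearts and 7302, 6464 and 7043 in miR-19a/19b mimic hearts. The highest miR-19a/19b mimic heart lay just below the lowest control heart, as it did for 5.3% of all genes tested. On the RPKM scale, which divides reads by the library total and the length of the gene model, the groups overlapped, at 30.3 to 33.6 in control hearts and 26.1 to 31.6 in miR-19a/19b mimic hearts. The difference was small, a log2 fold change of -0.13 with a standard error of 0.11 (adjusted p = 0.9996 from limma), and the 95% confidence interval of the fold, 0.767 to 1.09, included no change.

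Osmr (ENSMUSG00000022146, chr15:6813577-6874969, minus strand) is the chain that pairs with gp130 to bind oncostatin M. Osmr had 1861, 2041 and 1899 normalized counts in control hearts and 1767, 1874 and 1769 in miR-19a/19b mimic hearts. In miR-19a/19b mimic replicates 1 and 3 Osmr was below the control range, and in replicate 2 it was inside it. On the RPKM scale replicates 1 and 2 were below the control range of 7.10 to 8.14, at 6.33 and 6.93, and replicate 3 was inside it, at 7.28. Il6ra (ENSMUSG00000027947, chr3:89864059-89913196, minus strand) is the chain that binds interleukin-6 itself. It had 947, 1030 and 1198 in control hearts and 892, 805 and 1121 in miR-19a/19b mimic hearts. The groups overlapped because miR-19a/19b mimic replicate 3 was above 2 of the control hearts. The log2 fold changes were -0.10 (standard error 0.09) for Osmr and -0.18 (standard error 0.15) for Il6ra. Without miR-19a/19b mimic replicate 3 the log2 fold change of Il6ra was -0.31, with an unadjusted p-value of 0.0184 and an adjusted p-value of 0.212 from limma.

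Stat3 (ENSMUSG00000004040, chr11:100885098-100939540, minus strand), the transcription factor downstream of gp130, had the smallest difference of the 10. Its counts were 5594, 5405 and 6152 in control hearts and 6210, 5963 and 5117 in miR-19a/19b mimic hearts. Both the highest and the lowest value of Stat3 were in miR-19a/19b mimic hearts, replicates 1 and 3. Between the groups Stat3 had a log2 fold change of 0.01 with a standard error of 0.12, and the 95% confidence interval of the fold was 0.831 to 1.22. These are mRNA levels, and the phosphorylated protein was not measured by this assay. The end of Stat3 overlaps Stat5a on the other strand, and since counting by strand is not stated, reads in that overlap are uncertain.

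**Figure D2:**
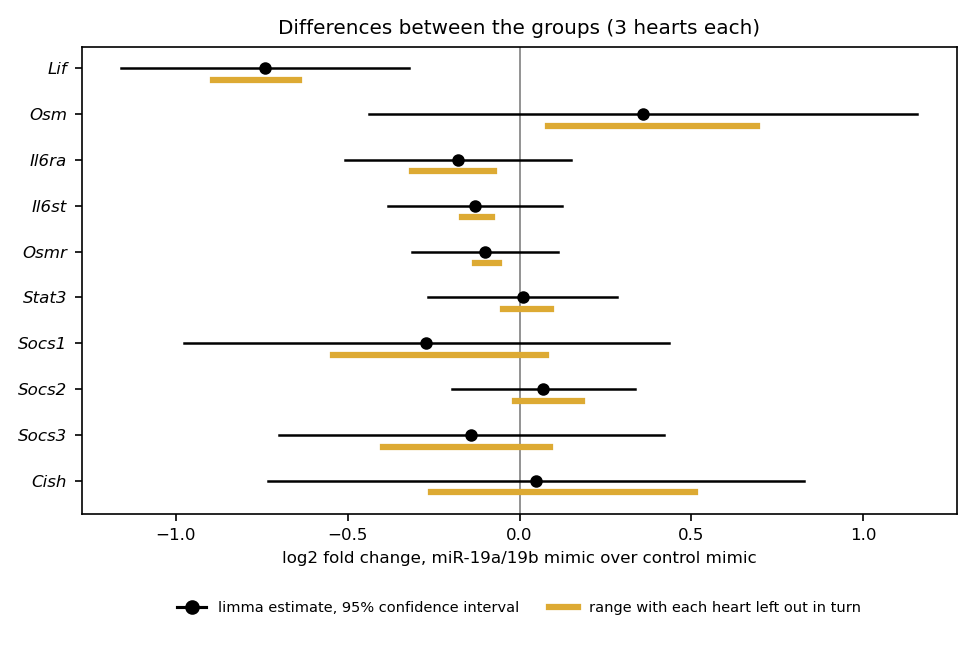
Log2 fold change of each of the 10 genes (horizontal axis, miR-19a/19b mimic over control mimic), with the 95% confidence interval from limma as a black line and the range when 1 heart at a time is left out as a yellow bar. The interval of Lif, from -1.16 to -0.32, is the only one that does not include 0.

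Socs1 (ENSMUSG00000038037, chr16:10783808-10785536, minus strand) encodes the inhibitor of interferon receptor kinases and holds the 8-mer match printed above. Its normalized counts were 115, 143 and 90.6 in control hearts and 58.1, 105 and 138 in miR-19a/19b mimic hearts. The lowest value was in miR-19a/19b mimic replicate 1, but replicate 3 of the same group was above 2 of the 3 control hearts. The means were 116 ± 26.4 (SD, n = 3) and 101 ± 40.3, a log2 fold change of -0.27 with a standard error of 0.31 (adjusted p = 0.9996 from limma). The sign of the difference changed with 1 heart, since the log2 fold change was 0.08 without miR-19a/19b mimic replicate 1 and -0.54 without replicate 3. The 95% confidence interval of the fold was 0.509 to 1.35. Socs1 rested on 54 to 160 reads per heart, and its gene model in the deposited table begins at 10783808, while that of GENCODE M21 extends to 10782240.

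Socs3 (ENSMUSG00000053113, chr11:117966079-117970047, minus strand) encodes the inhibitor of gp130 and is itself a target gene of Stat3. It had 1752, 1713 and 1016 normalized counts in control hearts and 958, 1507 and 1578 in miR-19a/19b mimic hearts. The 2 low hearts, control mimic replicate 3 and miR-19a/19b mimic replicate 1, came from different groups. The log2 fold change was -0.14 with a standard error of 0.25 (adjusted p = 0.9996 from limma), and the 95% confidence interval of the fold was 0.615 to 1.34. The log2 fold change of Socs3 ran from -0.40 without control mimic replicate 3 to 0.09 without miR-19a/19b mimic replicate 1. Within the control group alone the highest heart was 1.73-fold above the lowest, against a ratio of 0.903 between the group means.

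Socs2 (ENSMUSG00000020027, chr10:95385362-95417180, minus strand) encodes the inhibitor of growth hormone signaling. It was nearly constant in control hearts, at 1421, 1428 and 1403 normalized counts, and spread more widely in miR-19a/19b mimic hearts, at 1671, 1547 and 1272. The miR-19a/19b mimic hearts therefore lay on both sides of the control hearts, with replicates 1 and 2 above and replicate 3 below. Socs2 had a log2 fold change of 0.07 with a standard error of 0.12. Cish (ENSMUSG00000032578, chr9:107296026-107302784, plus strand) encodes the founding member of the family, which acts on receptors that use Stat5. It showed the same arrangement, with 376, 497 and 518 in control hearts and 726, 590 and 250 in miR-19a/19b mimic hearts. Both the highest and the lowest heart for Cish were in the miR-19a/19b mimic group, a 2.91-fold range. The log2 fold change of Cish was 0.05 with a standard error of 0.34. Without miR-19a/19b mimic replicate 3 it was 0.51, with an unadjusted p-value of 0.00545 and an adjusted p-value of 0.108 from limma, and without replicate 1 it was -0.26. Replicates 3 and 1 had the lowest and the highest summed cardiomyocyte markers, and their part in the result was not tested. Cish overlaps 2 annotated genes on the other strand, so its counts are uncertain there.

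The members were also described by whether their 3′ UTR held a seed match, with no test over so few genes. All 5 members with a match had a log2 fold change below 0, with a median of -0.14, and 1 of the 5 without a match did, with a median of 0.05. Over all genes tested, 49.2% were below 0, a share that was not split by match. Among the 79 other pathway genes, 10 of 16 with a match and 35 of 63 without one were below 0, with medians of -0.09 and -0.04. Of the 5 members with a match only Lif had an unadjusted p-value under 0.05, and the 2 genes with an 8-mer, Socs1 and Socs3, changed sign when miR-19a/19b mimic replicate 1 was left out. A match to the seed is a description of the letters and not evidence of binding.

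Compared per length of the gene model, as RPKM, the levels of the 10 genes in control hearts spanned from Il6st at 31.9 ± 1.69 (SD, n = 3) to Osm at 0.836 ± 0.293. Stat3 stood at 28.0 ± 1.06 and Socs3 at 24.3 ± 7.25 on this scale, and their ranges overlapped. A second tier held Osmr at 7.47 ± 0.585, Socs2 at 6.95 ± 0.288 and Il6ra at 5.71 ± 0.582, where Osmr and Socs2 overlapped. The ranges of Il6ra, Socs1 at 4.48 ± 1.16 and Cish at 3.38 ± 0.561 overlapped from each gene to the next. Lif at 1.603 ± 0.168 was below Cish and above Osm in every control heart. The 2 ligands were thus the least abundant transcripts of the 10 and gp130 the most abundant.

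The inhibitors varied between hearts in a pattern that did not follow the groups. Socs1 and Socs3 were lowest in miR-19a/19b mimic replicate 1 and next lowest in control mimic replicate 3. Across the 6 hearts, Pearson's r between Socs3 and Socs1 was 0.87 (exact permutation test, two-sided, p = 0.00972) and Spearman's rho was 0.83 (exact p = 0.0583). Adjusted over the 9 relations of Socs3 with the other members, the p-value of r was 0.0875, and 0 of the 9 passed 0.05. On reads divided by the library total (RPM) in place of the deposited scaling, a setting chosen after seeing the data, it was 0.0375 (exact permutation test over the same 6 hearts), and r was 0.91, or 0.72 without the 2 low hearts. On the deposited scaling, without the 2 hearts farthest from the median of Socs3, which are the 2 low ones, r was 0.36, so the relation rested on those hearts. Socs3 and Stat3 ran in opposite directions, at r = -0.79 (exact permutation p = 0.075, adjusted p = 0.2375). Without the same 2 hearts that r was -0.27. The relation of Socs3 with Osm, at r = 0.80 (exact permutation p = 0.0792, adjusted p = 0.2375), had r = -0.89 without these 2 hearts.

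Cish and Socs2 ran the other way. Both were highest in miR-19a/19b mimic replicate 1, next in replicate 2 and lowest in replicate 3, the order of the cardiomyocyte markers in that group. Over the 6 hearts, r between Cish and the summed cardiomyocyte markers was 0.93 (exact permutation p = 0.00972, rho = 0.94 with exact p = 0.0167) and 0.56 without the 2 hearts farthest from the median of those markers, miR-19a/19b mimic replicates 1 and 3. Socs2 gave r = 0.92 with the same markers (exact permutation p = 0.0167, rho = 0.77 with exact p = 0.103) and 0.74 without those 2 hearts. Stat3 gave r = 0.92 (exact permutation p = 0.00556, rho = 0.94 with exact p = 0.0167) and 0.79 without them. With the neutrophil markers Socs1 gave r = 0.92 (exact permutation p = 0.0167, rho = 0.77 with exact p = 0.103) and 0.56 without the same 2 hearts, while Cish gave r = -0.88 (exact permutation p = 0.0208, rho = -1 with exact p = 0.00278, the smallest that 6 hearts allow) and -0.86 without them. Socs2 gave r = -0.95 with the neutrophil markers (exact permutation p = 0.00694, rho = -0.83 with exact p = 0.0583). Stat3 gave r = -0.82 with them (exact permutation p = 0.0319, rho = -0.89 with exact p = 0.0333). Without those 2 hearts r was -0.77 and -0.74. With 7 macrophage markers r was -0.92 for Socs2 (exact permutation p = 0.0139) and 0.87 for Socs1 (exact permutation p = 0.0208). Without the same 2 hearts these were -0.70 and 0.58. These relations were chosen after seeing the data. Of the 30 tested, 9 had an unadjusted p-value of r under 0.05 and 0 passed after adjustment, the smallest adjusted value being 0.0781. Each relation pools both groups.

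**Figure D3:**
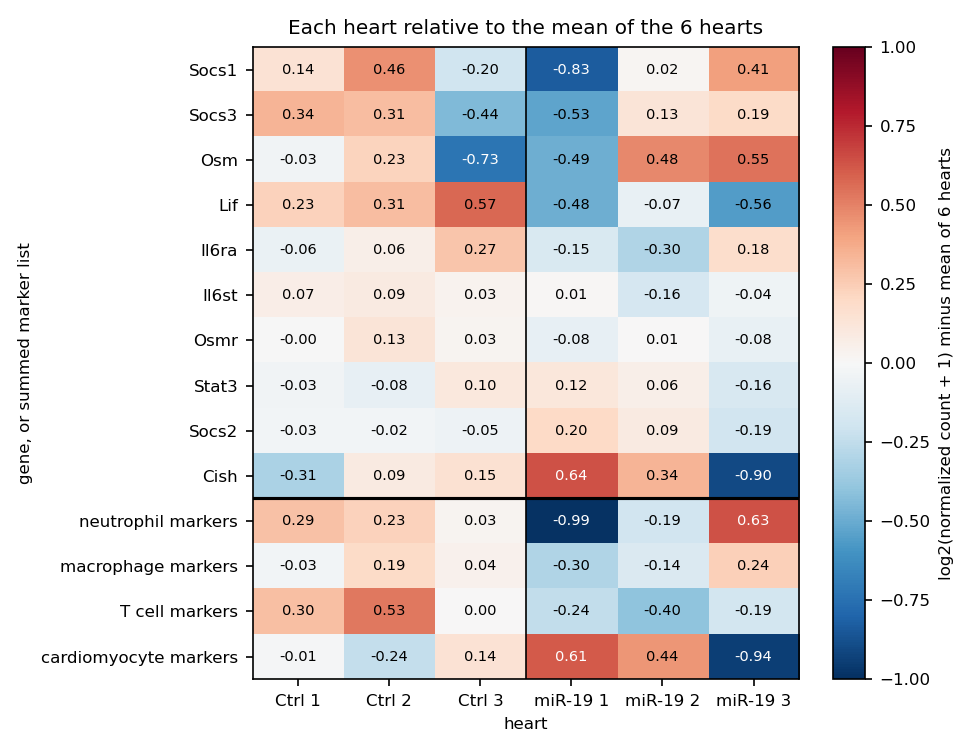
Each of the 10 genes and 4 summed marker lists (rows) in each heart (columns), as log2(normalized count + 1) minus the mean of the 6 hearts, with red above and blue below the mean. Socs1 and Socs3 are lowest in miR-19a/19b mimic replicate 1, at -0.83 and -0.53, where Cish is highest at 0.64, and Cish is lowest in replicate 3 at -0.90, where the cardiomyocyte markers are also lowest at -0.94.

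The genes whose pattern over the 6 hearts was most like that of Socs1, by Pearson's r among 15512 genes with a mean of at least 10 normalized counts, included Stk16, Gm6863, Aif1 and Ccr1, with r between 0.992 and 0.995. Aif1 is a macrophage gene, and its normalized counts ran from 445 in miR-19a/19b mimic replicate 1 to 724 in control mimic replicate 2. Ccr1, a chemokine receptor of monocytes and neutrophils, ran from 462 to 921. For Socs3 the closest genes were Zfp946, AW146154, Myl7, C920025E04Rik and Tnf, with r between 0.986 and 0.997. Tnf, the inflammatory cytokine, had 57.5, 49.8 and 18.7 normalized counts in control hearts and 18.3, 36.1 and 49.3 in miR-19a/19b mimic hearts, low in the same 2 hearts as Socs3. These values are a description, since they were among the highest of many genes compared over few hearts.

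The promoter windows of Cish and Socs3 are printed because they hold the element that Stat proteins bind and both genes differed between hearts. Stat proteins bind the element TTCNNNGAA, which reads the same on both strands. It occurs in 8.30% of the 32851 RefSeq promoters of GRCm38.p6 searched, each running from 250 bases before the start to 50 after it, and 0.457% hold 2 or more. Promoters were found for 8 of the 10 members, all but Socs2 and Osm. Those of Il6ra, Il6st, Lif, Osmr, Socs1 and Stat3 held no match. Cish had 2 matches, the first beginning at the RefSeq start and the second 11 bases after it, at chr9:107296649-107296677 and chr9:107296660-107296688 on the plus strand. Socs3 had 1 match, 154 bases before its RefSeq start, at chr11:117969502-117969530 on the minus strand. The RefSeq starts differ from the starts of the gene models given above, and the windows of both genes lie inside those models. The element is in capitals, and a match does not show that a Stat protein binds there.
Cish, first match: ccgcccagttTTCCTGGAAagttcttgga
Cish, second match: tcctggaaagTTCTTGGAAatctgtcaaa
Socs3: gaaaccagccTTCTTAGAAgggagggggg

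Around the 10 members, 81 other genes of the pathway were examined in 7 lists. Of these, 79 were tested, and Cntf and Il5ra were below the filter. At an unadjusted p-value under 0.05, 10 had lower and 2 had higher levels with the miR-19a/19b mimic, against 2.63% and 1.39% of all genes tested, and 0 passed the adjusted threshold in limma. Of the 10 lower genes at that p-value, 5 were in the interferon gamma axis. Without miR-19a/19b mimic replicate 3, 17 of the 79 were lower and 8 higher at the unadjusted threshold. In that fit, 1289 of all 21202 genes tested were lower and 1778 higher at the same threshold.

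Among 8 tested ligands and ligand subunits of the gp130 family, the median log2 fold change was -0.21. Il11, the fibroblast cytokine interleukin-11, had 19.9, 41.96 and 39.2 normalized counts in control hearts and 14.0, 27.8 and 24.2 in miR-19a/19b mimic hearts, and the groups overlapped. Among 4 other receptor chains, Cntfr, the receptor for ciliary neurotrophic factor, was higher in every miR-19a/19b mimic heart, at 221, 209 and 218 against 172, 135 and 172. Its log2 fold change was 0.44 with a standard error of 0.14 (unadjusted p = 0.0131, adjusted p = 0.9996 from limma). Il11ra1 had a log2 fold change of 0.08 and overlapped, and the median of the receptor list was 0.04.

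The 10 Janus kinases and other Stats had a median log2 fold change of -0.06. Stat2, a subunit of the complex that carries the type I interferon signal, had 1850, 2204 and 2028 normalized counts in control hearts and 1102, 1438 and 1523 in miR-19a/19b mimic hearts. The groups did not overlap, and the log2 fold change of Stat2 was -0.59 with a standard error of 0.14 (unadjusted p = 0.00220, adjusted p = 0.815 from limma). The difference between Stat2 and Stat3 was not itself tested.

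In the interferon gamma axis, in which Socs1 acts, 9 of 12 genes had a log2 fold change below 0 and 3 above, with a median of -0.36. Over all genes tested, 49.2% were below 0. Ifng, the gene of the ligand itself, was near the floor, at 0.93 to 2.06 normalized counts per heart. Its log2 fold change was 0.18 with a standard error of 0.52. At an unadjusted p-value under 0.05, 5 were lower and 0 higher, beside 2.63% and 1.39% of all genes tested. The 5 were Tap1, the peptide transporter of antigen presentation, at -0.46, the chemokine Cxcl9 at -0.68, the checkpoint ligand Cd274 at -0.74, Ciita, the activator of class II antigen genes, at -0.51, and the immunoproteasome subunit Psmb9 at -0.38. Adjusted p-values from limma were 0.947 for Tap1 and 0.9996 for the others. Cxcl9 had 242, 232 and 155 normalized counts in control hearts and 107, 148 and 134 in miR-19a/19b mimic hearts, without overlap. The T cell markers listed above were lower in the same hearts, and their part in these values was not tested.

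Of 11 tested receptors that signal through Stat5, the receptors on which Cish and Socs2 act, 7 had a log2 fold change below 0 and 4 above. At an unadjusted p-value under 0.05, 2 were lower, beside 2.63% of all genes tested, and both are chains of the interleukin-2 receptor of lymphocytes. Il2ra had 29.8, 33.2 and 39.2 normalized counts in control hearts and 17.2, 16.5 and 19.02 in miR-19a/19b mimic hearts. Il2rb had 125, 172 and 77.5 against 74.2, 51.5 and 66.6. Both were without overlap, with log2 fold changes of -0.91 (standard error 0.25, adjusted p = 0.948 from limma) and -0.89 (standard error 0.29, adjusted p = 0.9996). All 6 T cell markers also had lower means in miR-19a/19b mimic hearts, and their part in these values was not tested.

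The 22 Stat3 target genes were spread around no change, 9 of them below 0 and 13 above, and the median log2 fold change was 0.05. Of the 22, only Cebpb, a transcription factor of the acute phase response, had an unadjusted p-value under 0.05, beside 4.01% of all genes tested. It had 1593, 1947 and 1443 normalized counts in control hearts and 1920.5, 2176 and 2246 in miR-19a/19b mimic hearts, where the lowest miR-19a/19b mimic heart was just below the highest control heart. The log2 fold change was 0.36 with a standard error of 0.13 (unadjusted p = 0.0239, adjusted p = 0.9996 from limma). Lrg1, a secreted glycoprotein of the acute phase, had a log2 fold change of 0.29 (standard error 0.14) and overlapped. Among 12 other Socs genes, Pias genes and phosphatases, 0 had an unadjusted p-value under 0.05, and the median was -0.01. The 2 with the smallest p-values were Socs5, at a log2 fold change of -0.14, and Socs7, at 0.16, and both overlapped between the groups.

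**Figure D4:**
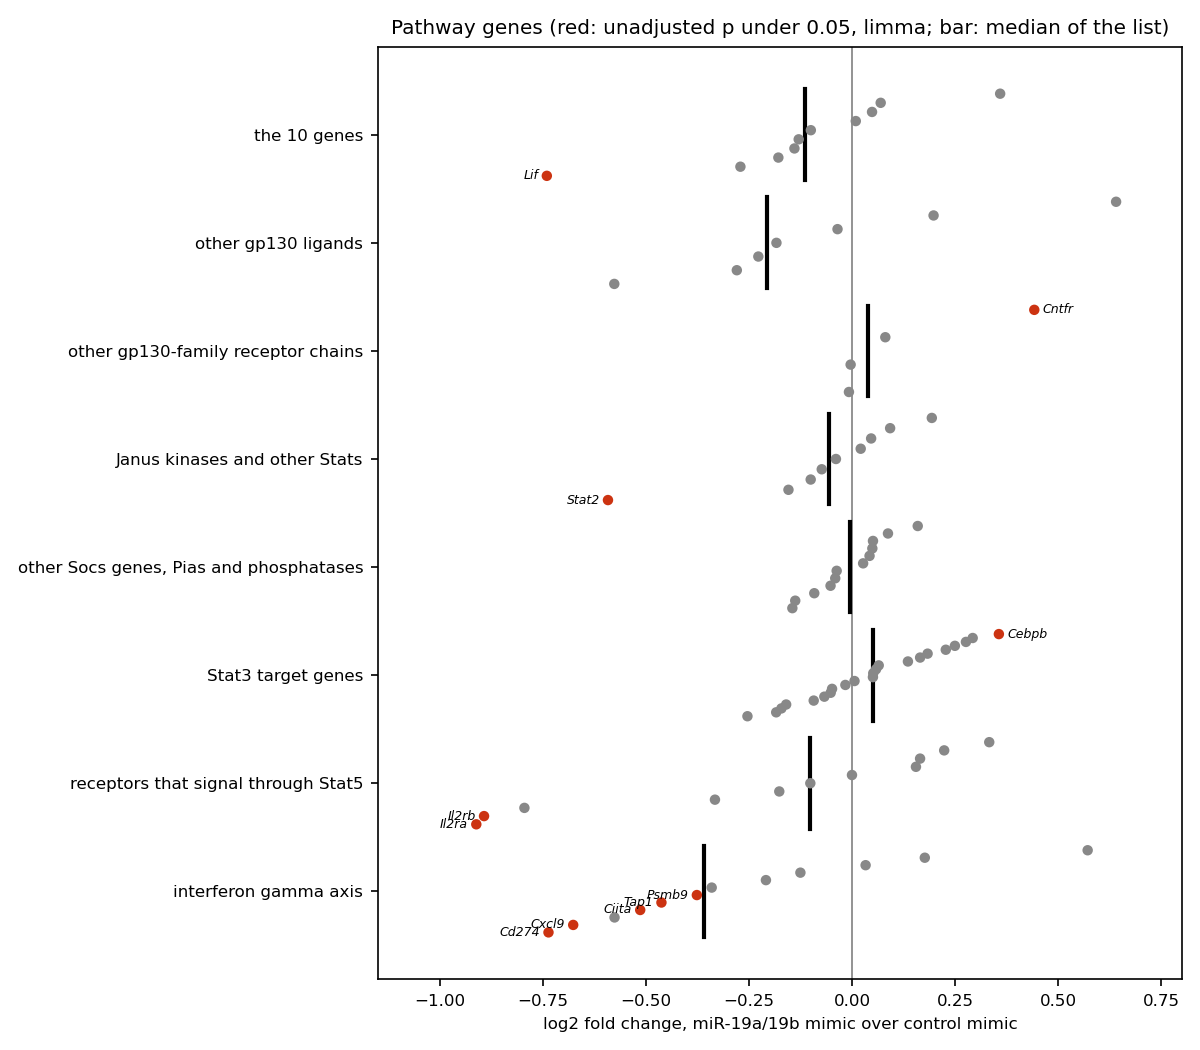
Log2 fold change (horizontal axis, miR-19a/19b mimic over control mimic) of the tested genes that are reported, by list (rows), where red, named points have an unadjusted p-value under 0.05, and the median of each whole list as a black bar. The median of the interferon gamma axis was -0.36 and that of the Stat3 target genes 0.05, beside 0.00 over all genes tested. The difference between the lists was not tested.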

How the data were processed

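RNA-seq was made from 6 infarcted mouse hearts, 3 per mimic. Per the submitters' processing notes the tools were STAR 2.5.1b, HTSeq 0.6.0 and DESeq2 1.10.1, and the build mm9. The gene coordinates in the table nevertheless matched GRCm38, and are given as such. The deposited values are a signal, namely read counts per gene that the authors divided by a size factor of each library, and in all 6 libraries 100% of values were whole reads within 0.01 read once multiplied back. The authors' other columns hold gene lengths, which were used for levels per length, and their fold changes and p-values, which were not used. A second deposited table with a subset of the genes was not used.

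Values were tested as log2(normalized count + 1) with limma 3.58.1 (R 4.3.3, trended prior), which is moderated across genes, over the 21126 genes with a mean of at least 1, with Benjamini-Hochberg adjustment and a threshold of 0.05. A fold on this scale understates the change of low genes. edgeR 4.0.16, DESeq2 1.42.0, other scalings, filters and pseudocounts, and leaving out each heart were the alternatives. Nothing in the labels says how the hearts were pooled or processed, so p-values measure the spread between these samples. Relations across hearts were tested by exact permutation over all pairings.

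The members and pathway lists were chosen with earlier results of these data known. The named genes were all members, every gene of a pathway list with an unadjusted p-value under 0.05 or otherwise the 2 with the smallest p-values, and the 5 genes most like Socs1 and Socs3. Ifng was named in addition, as the ligand of its list. Some genes that this rule names are not reported here. Sequences came from RefSeq (GRCm38.p6) and from the GRCm38 genome with GENCODE M21. Scripts were tested on simulated data.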

Additional observations from a re-analysis of the deposited data

How the results depend on the processing

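Calls over all genes, with an adjusted p-value under 0.05, numbered 0 in limma and 29 in DESeq2 (28 lower, 1 higher), and ran from 0 to 547 with each heart left out, the 547 being without miR-19a/19b mimic replicate 3. It was 0 with edgeR, voom, the other scalings, filters and pseudocounts, and with the replicate number as a block. At an unadjusted p-value under 0.05, with each heart left out, the genes ran from 610 to 3067 (848 with all hearts), the members from 1 to 3 and the pathway genes from 9 to 25, each highest without miR-19a/19b mimic replicate 3. The cause was not tested. Over the same fits the log2 fold change crossed 0 for Cish (-0.26 to 0.51), Stat3 (-0.047 to 0.092), Socs1 (-0.54 to 0.076), Socs2 (-0.014 to 0.18) and Socs3 (-0.40 to 0.089). Lif stayed between -0.89 and -0.64 in every alternative. Of the relations of Socs3 with other members, 0 passed after adjustment and 1 did on reads divided by the library total.

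Same-numbered hearts did not deviate together (r = -0.01, -0.02 and -0.11), so the numbers were not taken as pairs. With the replicate block, 641 genes, 13 pathway genes and 1 member had an unadjusted p-value under 0.05, and that of Lif was 0.00950. Osm, Socs1 and Lif had the fewest reads of the members, and whether this set their errors was not tested. With 3 hearts per group, an exact permutation test cannot go below p = 0.1.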
